A study of Mus musculus with 34 samples.

Results

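The collagen genes of the mouse are described here across sorted stromal cells of 9 tissues. They are 44 genes, each encoding a collagen alpha chain, of 51826 gene identifiers counted in every library. They were chosen by gene name, as a set put forward with earlier results of these data known, and were sorted by the structures their proteins are known to build into 11 fibrillar, 8 basement membrane, 6 type VI, 9 FACIT and 10 other genes. All 44 were present in the files, and all 44 were among the 25705 genes that passed the filter on low counts. For Col9a2, Col10a1, Col11a2 and Col13a1 this held through bone: these 4 did not pass once the bone libraries were taken out, and their calls in bone below are in part set by that filter.

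Collagens are proteins of the extracellular matrix whose alpha chains wind around each other as triple helices. Fibrillar collagens form the load-bearing fibres of connective tissue, type IV collagens form the sheet-like networks of basement membranes, type VI collagens form beaded filaments at the cell surface, and FACITs sit on the surface of fibrils. Fibroblasts are the main source of fibrillar collagen in most organs, osteoblasts of type I collagen in bone, and mesothelial cells, the lining of the body cavities, rest on a basement membrane of their own.

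The data are counts of polyadenylated RNA from 34 libraries in 12 groups, made to compare transcription of stromal cells between tissue environments. Cells free of CD45, CD31 and Epcam and carrying podoplanin were sorted from digested tissue into TRIZOL. Those with PDGFRA are labelled fibroblasts (25 libraries, from bone, spleen, pancreas, lymph node, brown adipose tissue, omentum, mesentery, inguinal and epididymal fat) and those without it mesothelial cells (9 libraries, from omentum, mesentery and epididymal fat). Each group holds 3 libraries, except 2 each for pancreas and spleen fibroblasts. Omentum, mesentery and epididymal fat carry the region label visceral fat, inguinal and brown adipose tissue the label subcutaneous fat, and every sample carries the label GFPneg. Strain, genotype, age and treatment are not given in the sources used here, and the labels do not tie libraries to animals. The p-values below therefore cover the spread among the libraries of a group, which may be technical.

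Depth ran from 28.7 to 42.3 M (mega) counts per library, with a median of 33.5 M. The label of the sort was checked against its markers: Pdgfra, which encodes the receptor used in the sort, read 367 to 1424 CPM (the count relative to the library's total, scaled between libraries by edgeR's TMM factors) in fibroblasts and 4.43 to 13.5 in mesothelial cells, Pdpn (podoplanin) read 163 to 761 in all groups, and Msln (mesothelin) read 823 to 2499 in mesothelial cells against 0 to 31.7 in fibroblasts. Markers of other cells were present in some groups. The summed level of 14 markers of pancreatic acinar cells was 42719 to 150332 CPM in pancreas fibroblasts, 901 to 4150.5 in omentum and mesentery fibroblasts, and 53.3 to 7853 in mesothelial cells of those depots, and it reached at most 965 CPM elsewhere. In bulk samples, fewer cells of a type and less RNA per cell cannot be told apart.

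Collagen took very different shares of the RNA in these groups. The 44 genes together drew 11.2 to 17.6% of all counts in bone fibroblasts, 5.37 to 6.08% in inguinal and 4.9 to 5.24% in brown adipose fibroblasts. In the other fibroblasts the share lay between 0.814 to 0.952% (lymph node) and 1.6 to 2.42% (epididymal fat). Mesothelial cells gave 0.548 to 1.47%. Bone libraries stood above all others, and the libraries of both subcutaneous depots stood above those of all tissues but bone. At the low end lymph node libraries overlapped with mesothelial cells. Omentum (1.27 to 1.57%), mesentery (1.19 to 2.32%) and pancreas (1.29 to 2.03%) fibroblasts also reached into the mesothelial range. Within each of the 3 visceral depots the fibroblast libraries lay above the mesothelial libraries.

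**Figure D1:**
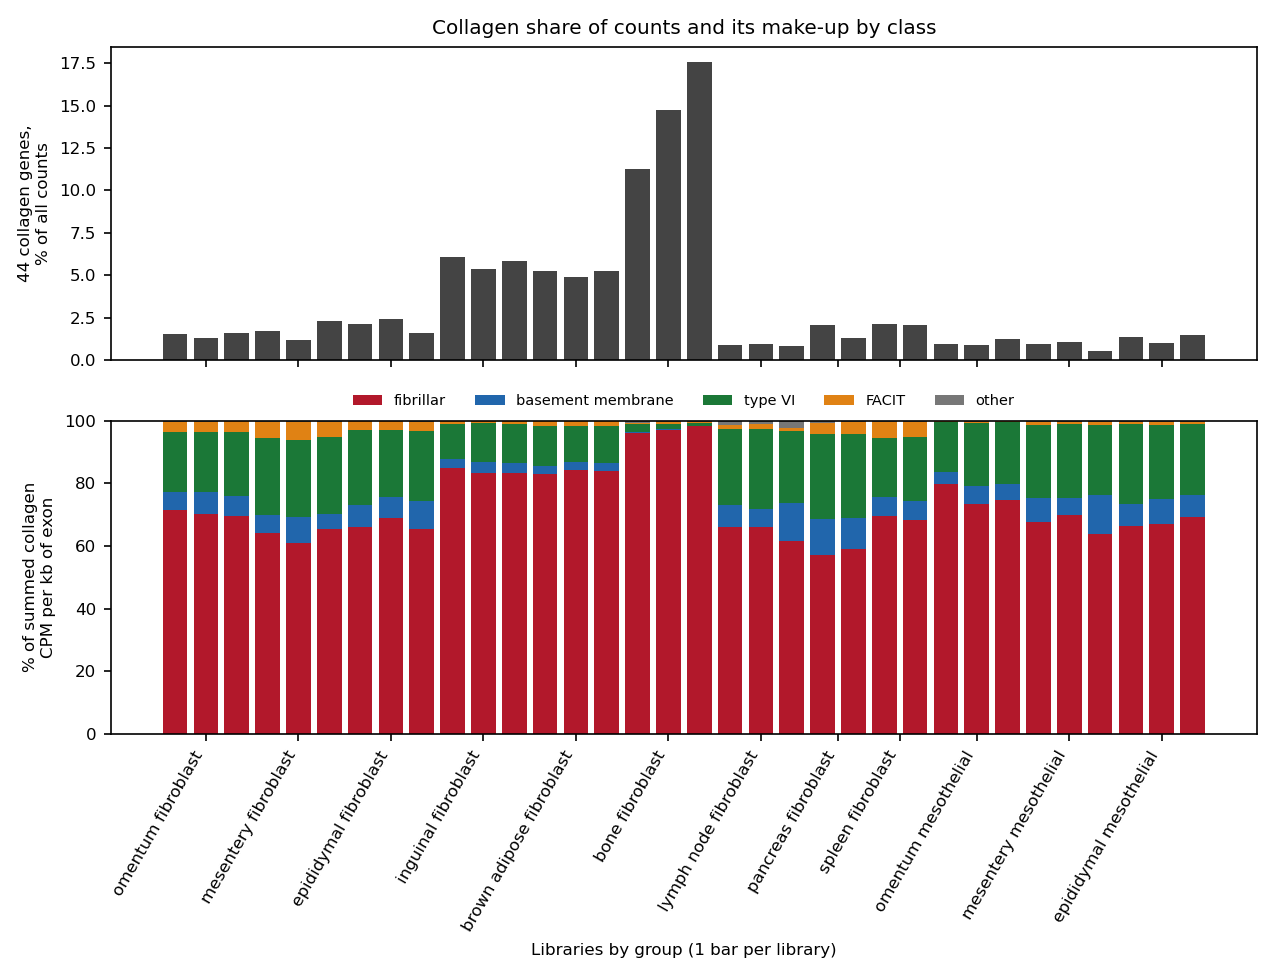
Upper panel: share of all counts that fell on the 44 collagen genes, in percent, 1 bar per library. Lower panel: make-up of the collagen RNA by class, in percent of the summed CPM per kilobase of exon. Bone libraries reach 11.2 to 17.6% of counts and are almost wholly fibrillar.

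The make-up of that RNA was compared after dividing each gene's CPM by its merged exon length in kilobases, since levels of different genes compare only per length. Fibrillar genes made up 96.1 to 98.2% of collagen CPM per kilobase in bone, 82.9 to 85% in the subcutaneous depots and 57.1 to 59.2% in pancreas. On the longest annotated transcript these shares were 97.3 to 98.7%, 87.9 to 89.5% and 66.7 to 68.6%. The class shares thus depend on the length used. Basement membrane genes took only 0.0885 to 0.256% in bone, against 9.84 to 11.6% in pancreas and 5.7 to 12.2% in lymph node. In mesothelial cells they took 3.85 to 12.7%, and in fibroblasts of the same 3 depots 5.02 to 9.01%, with overlap. Type VI genes took 26.8 to 26.9% in pancreas and 1.03 to 2.5% in bone. FACIT genes took 0.277 to 0.939% in mesothelial cells and 2.58 to 5.76% in fibroblasts of the same 3 depots, with no overlap.

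Col3a1 (chr1:45311538-45349706, GRCm38), the chain of type III collagen, gave the highest level per kilobase in 11 of the 12 groups, for example 3318 ± 80.2 CPM per kilobase (SD, n = 3) in inguinal fibroblasts. Bone was the exception: there the type I chains Col1a1 and Col1a2 led at 9031 ± 3667 and 7417 ± 1917 CPM per kilobase (SD, n = 3), and Col3a1 read 723. The order of Col1a1 and Col1a2 depends on the length used. Col1a1 over Col1a2 was 0.946 to 1.34 in the bone libraries on the merged exon length, which for Col1a2 is 12426 bases, and 0.451 to 0.639 on the longest annotated transcript, 5348 bases. On the longest transcript Col3a1 still had the highest mean in the 11 groups outside bone. The ratio of Col3a1 to Col1a1 per kilobase was 0.052 to 0.167 in bone and 1.78 to 8.81 in the libraries of all other groups, or 0.0829 to 0.266 and 2.84 to 14 on the longest transcript. Because Col3a1 leads, the RefSeq sequence before its start is shown (250 bases, chr1:45311288-45311537, plus strand, GRCm38.p6). Capitals mark matches, on either strand, to 3 short promoter motifs, of which this run holds a single TATA box:
Col3a1: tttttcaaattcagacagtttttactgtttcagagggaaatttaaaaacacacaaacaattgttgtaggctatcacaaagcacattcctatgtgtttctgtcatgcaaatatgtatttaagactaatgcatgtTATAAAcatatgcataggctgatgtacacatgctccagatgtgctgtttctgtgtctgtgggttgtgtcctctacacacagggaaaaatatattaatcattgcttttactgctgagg
Of the 44 genes, 35 had an entry in the RefSeq promoter table. The GC box was searched as GGGCGG, and 32.7% of the table's 32851 promoters hold it in the 250 bases before the start. For the CCAAT box the letters were CCAAT, held by 33.8% of them. For the TATA box they were TATAAA, held by 12.4%. A match is a description of letters only.

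**Figure D2:**
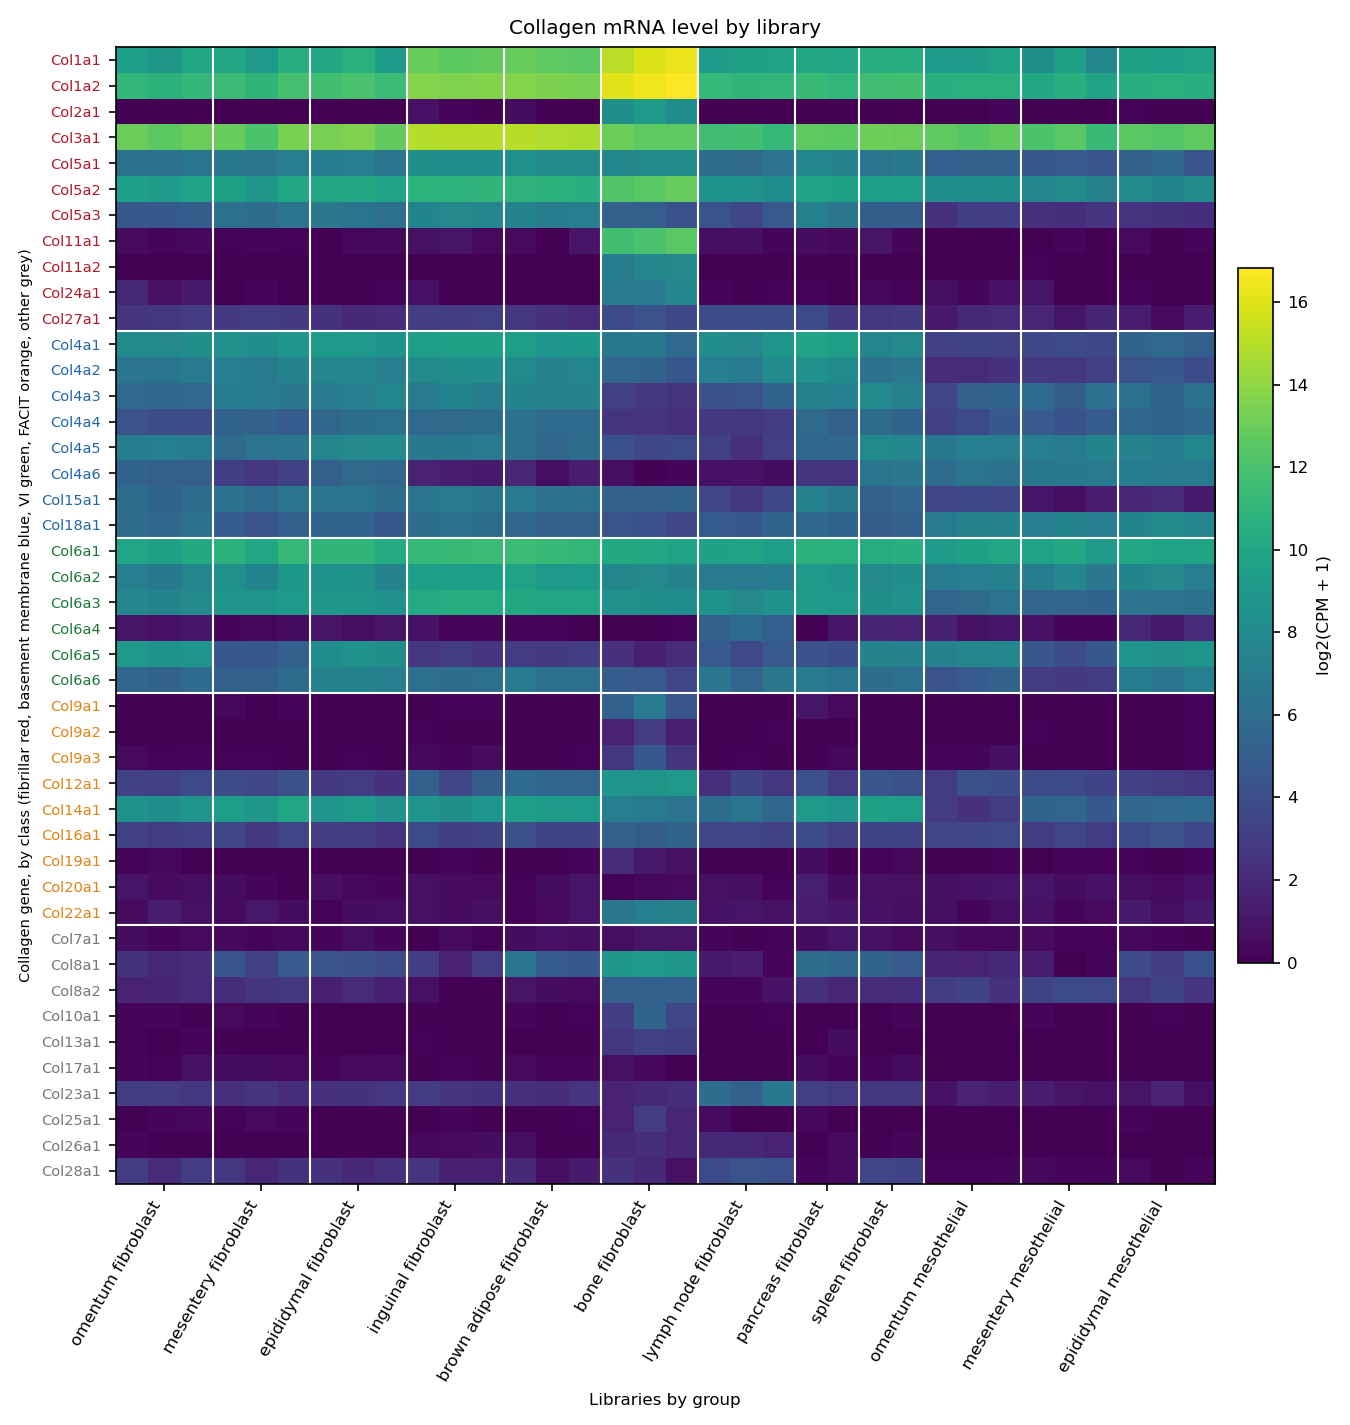
Level of each collagen gene (rows, grouped and coloured by class) in each library (columns, by group), as log2(CPM + 1). The bone block stands out in Col2a1, Col9a1, Col11a1, Col11a2, Col22a1 and Col24a1, and the mesothelial groups are pale in Col4a1, Col4a2, Col14a1 and Col15a1.

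Mesothelial cells were compared with fibroblasts of the same depot. Averaged over the 3 depots, mesothelial cells had far less mRNA of the common basement membrane chains Col4a1 and Col4a2, of Col15a1, of the FACIT Col14a1, of type V chains and of Col6a3, and more Col4a6, Col18a1 and Col8a2. A gene is called here where the quasi-likelihood test of edgeR gave an adjusted p (Benjamini-Hochberg, over all genes) under 0.05 and the log2 difference was 1 or more in size. Differences, written with ± their standard error, are log2 values throughout. Of the 44 collagen genes 18 were called, 3 higher and 15 lower in mesothelial cells, where 21.4% of all genes were called (12.3% higher, 9.08% lower). The median log2 fold change was -0.72 over the collagen genes and 0.11 over all genes tested.

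Among the fibrillar genes 4 of 11 fell with Col5a1, Col5a2, Col5a3 and Col27a1. Type V collagen is known to set the diameter of fibrils. Col5a3 (chr9:20770050-20815067) read 4.37, 7.69, 7.29, 3.83, 3.57, 4.72, 5.09, 4.56 and 3.58 CPM in the mesothelial libraries of omentum, mesentery and epididymal fat in that order and 22.4 to 101 CPM in the 9 fibroblast libraries of the same depots, a log2 difference of -3.5 ± 0.17 (adjusted p = 5.71e-18). No mesothelial library reached the lowest fibroblast library. Col5a1 differed by -1.79 ± 0.13, Col5a2 by -1.71 ± 0.13 and Col27a1 by -1.51 ± 0.21.

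The type I and III chains did not reach the required size in the mean over depots. Col1a1 (chr11:94936224-94953042), which makes up most of type I collagen, read 547, 623 and 847 CPM in omentum mesothelial cells, 336, 761 and 219 in mesentery and 738, 716 and 815 in epididymal mesothelial cells, and in the matching fibroblasts 718, 469 and 943 in omentum, 975, 539 and 1502 in mesentery and 1116, 1615 and 639.6 in epididymal fat. The Col1a1 ranges overlapped in all 3 depots. Col1a1 differed by -0.62, Col1a2 by -0.94 (adjusted p = 2.7e-08 in edgeR's test) and Col3a1 by -0.62 (adjusted p = 0.000839) on the log2 scale. Col1a2 read 895 to 1673 CPM in mesothelial libraries and 1759 to 4137 in fibroblasts of these depots, with no overlap. It was called in mesentery at -1.33 and in epididymal fat at -1.11, the latter not without epididymal fibroblast replicate 2 (-0.96). Col3a1 ranges overlapped in omentum and mesentery but not in epididymal fat. In mesentery alone Col1a1 reached -1.2, but this value was -0.79 without mesentery fibroblast replicate 3, -0.87 without mesentery mesothelial replicate 3 and -1.14 without mesentery mesothelial replicate 1, none of them called, and -1.86 without mesentery mesothelial replicate 2.

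Basement membrane genes split in direction, with 2 of 8 higher and 4 lower. Col4a1 and Col4a2 encode the chains of the common type IV network and lie head to head on chromosome 8 (chr8:11198423-11312826 and chr8:11312805-11449287). Col4a1 read 8.03, 9.53 and 8.42 CPM in omentum mesothelial cells, 11.3, 13.6 and 11.5 in mesentery and 39, 52.9 and 32.9 in epididymal mesothelial cells. The fibroblasts read 270.1, 242 and 334 in omentum, 371, 309 and 449 in mesentery and 568, 546 and 393 in epididymal fat. All mesothelial libraries lay far below all fibroblast libraries, by a log2 difference of -4.52 ± 0.16 (adjusted p = 1.62e-21), and Col4a2 gave -4.26 ± 0.18. Col15a1, a multiplexin of the basement membrane zone, differed by -4.59 ± 0.18. Col4a3 was lower (-1.08) but its value fell short of the call without mesentery mesothelial replicate 2 (-0.98) and without omentum mesothelial replicate 1 (-0.95).

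The genes that rose were Col4a6 and Col18a1, the latter known as the source of endostatin. Col18a1 (chr10:77052178-77166548) read 114, 169, 185, 149, 193, 145, 195, 275 and 196 CPM in mesothelial libraries of omentum, mesentery and epididymal fat in that order and 19.6 to 74.3 in their fibroblasts. The lowest mesothelial library lay above the highest fibroblast library, and the log2 difference was 2.17 ± 0.15 (adjusted p = 4.32e-14). Col4a6 (chrX:141165403-141474076) encodes a chain of a minor type IV network and read 57.8, 89.9 and 79.6 CPM in mesothelial cells of omentum, 107, 107 and 126 in those of mesentery and 138, 117 and 127 in those of epididymal fat. In fibroblasts it read 39.1, 32.6 and 33.1 in omentum, 7.89, 5.46 and 8.77 in mesentery and 34.9, 54.9 and 46.9 in epididymal fat. Again no library of either side overlapped, and the log2 difference was 2.18 ± 0.16 (adjusted p = 2.01e-13).

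Col4a5 (chrX:141475385-141689234), the partner of Col4a6 in that network, lies head to head with it on chromosome X with 1308 bases between the annotated starts, and it did not follow the same pattern. It read 109 to 207 CPM in mesothelial cells and 55.6 to 278 in the fibroblasts, with overlap. Their ratio per kilobase, Col4a5 over Col4a6, was 1.36 to 2.24 in mesothelial cells, 2.63 to 3.29 in spleen fibroblasts, 4.06 to 17.9 in fibroblasts of the 3 visceral depots and 58.2 to 104 in inguinal fibroblasts. The neighbouring pair Col4a1 and Col4a2, whose annotated starts overlap, kept a ratio of 1.29 to 2.76 in every group. Another head-to-head pair, Col4a3 and Col4a4 on chromosome 1, has 71 bases between the starts. Its ratio, Col4a3 over Col4a4, ran from 1.0 to 6.62 over the libraries. The 2 upstream runs of Col4a5 and Col4a6 are shown because these genes leave a shared interval in opposite directions at different levels (Col4a5: 201 bases, chrX:141475169-141475369, plus strand; Col4a6: 231 bases, chrX:141474096-141474326, minus strand; RefSeq, GRCm38.p6, each up to the first annotated exon, capitals as above):
Col4a5: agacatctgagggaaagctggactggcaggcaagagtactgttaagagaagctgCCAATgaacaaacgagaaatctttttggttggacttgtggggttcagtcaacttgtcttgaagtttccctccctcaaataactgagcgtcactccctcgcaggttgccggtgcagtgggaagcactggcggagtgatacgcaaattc
Col4a6: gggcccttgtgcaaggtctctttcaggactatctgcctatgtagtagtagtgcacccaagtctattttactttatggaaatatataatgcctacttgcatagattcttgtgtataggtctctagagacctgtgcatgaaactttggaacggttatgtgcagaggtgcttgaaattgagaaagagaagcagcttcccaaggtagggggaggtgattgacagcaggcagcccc
The Col4a5 run holds a CCAAT box, and the Col4a6 run holds no match to the letters searched.

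**Figure D3:**
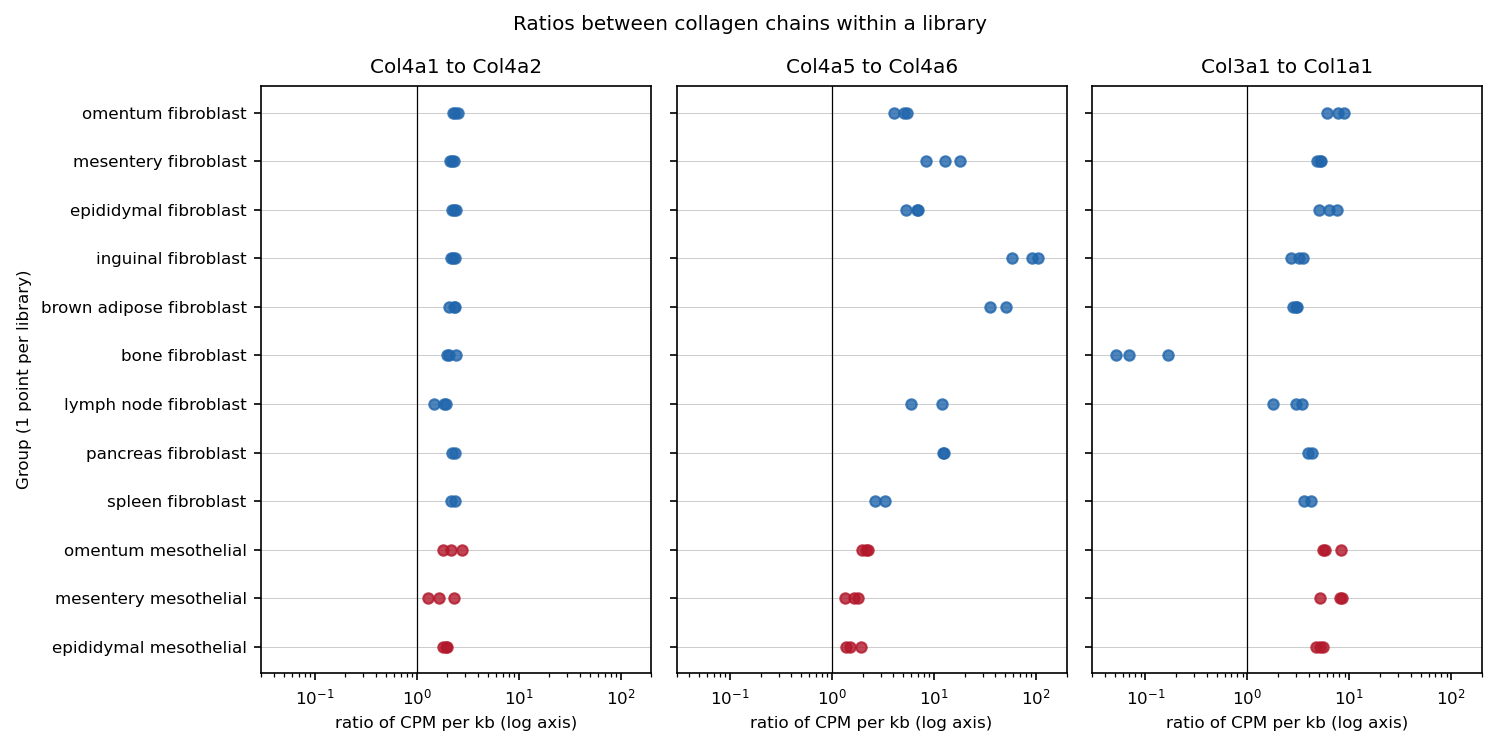
Ratio of CPM per kilobase between 2 collagen chains (log axis), 1 point per library, fibroblasts blue and mesothelial cells red; a ratio needed at least 20 counts of each gene. Col4a1 to Col4a2 stays between 1.29 and 2.76, while Col4a5 to Col4a6 and Col3a1 to Col1a1 spread widely between groups.

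Of the type VI genes 2 of 6 fell, Col6a3 and Col6a6. Col6a6 fell mostly in mesentery, with log2 differences of -2.76 there, -0.73 in omentum and -0.44 in epididymal fat. Its mesothelial and fibroblast libraries overlapped in omentum and in epididymal fat. Col6a3 (chr1:90765923-90843971) encodes the long chain that joins the shorter Col6a1 and Col6a2 chains, and read 42.1 to 84.9 CPM in mesothelial cells against 191 to 563 in fibroblasts of the same depots, a log2 difference of -2.55 ± 0.12 (adjusted p = 2.05e-18) without overlap. Col6a1 and Col6a2 differed by -0.77 and -0.69 and were not called. The Col6a3 to Col6a1 ratio per kilobase was 0.0138 to 0.0353 in mesothelial cells and 0.078 to 0.213 in fibroblasts. In mesentery Col6a1 and Col6a2 passed the threshold at -1.07 and -1.18, which did not hold without mesentery mesothelial replicate 3 (-0.82 and -0.95) or mesentery fibroblast replicate 3 (-0.76 and -0.84).

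Among the FACIT genes 1 of 9 fell. Col14a1 (chr15:55307750-55520803), which binds fibrils in soft connective tissue, read 6.66, 4.27 and 6.77 CPM in omentum, 39.6, 43.9 and 23.3 in mesentery and 46.5, 53.3 and 59.2 in epididymal mesothelial cells. Fibroblasts read 404, 305 and 424 in omentum, 696, 479.9 and 934 in mesentery and 443, 575 and 364 in epididymal fat. The 2 cell types were far apart in each depot, with a log2 difference of -4.48 ± 0.17 (adjusted p = 6.63e-21).

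In the remaining class 1 of 10 rose and 4 fell. The 2 chains of type VIII collagen, a network former of vessel walls and the cornea, went in opposite directions. Col8a2 (chr4:126286793-126314330) read 7.22, 9.31, 4.37, 9.88, 12.9, 12.3, 5.44, 9.34 and 4.97 CPM in mesothelial libraries of omentum, mesentery and epididymal fat in that order and 1.73 to 5.67 in the fibroblasts, a rise of 1.44 ± 0.23 (adjusted p = 3.27e-06) on the log2 scale. Within each depot the mesothelial libraries lay above the fibroblast libraries. Col8a1 (chr16:57624258-57754737) fell with a log2 difference of -2.0 ± 0.36 (adjusted p = 7.57e-05), mostly in mesentery, where it read 1.45, 0.0316 and 0.156 CPM against 20.3, 9.12 and 27.9 in fibroblasts. The mesentery value of -4.97 became -7.72 without mesentery mesothelial replicate 1, the highest of its group. The upstream runs of the 2 genes are shown since their products join in the same collagen (Col8a1: 250 bases, chr16:57754738-57754987, minus strand; Col8a2: 249 bases, chr4:126286544-126286792, plus strand; RefSeq, GRCm38.p6, capitals as above):
Col8a1: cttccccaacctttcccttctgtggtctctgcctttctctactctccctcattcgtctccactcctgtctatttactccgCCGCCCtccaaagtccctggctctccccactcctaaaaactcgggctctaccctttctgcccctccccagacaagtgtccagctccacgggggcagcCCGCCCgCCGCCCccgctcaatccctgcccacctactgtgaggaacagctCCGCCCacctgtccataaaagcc
Col8a2: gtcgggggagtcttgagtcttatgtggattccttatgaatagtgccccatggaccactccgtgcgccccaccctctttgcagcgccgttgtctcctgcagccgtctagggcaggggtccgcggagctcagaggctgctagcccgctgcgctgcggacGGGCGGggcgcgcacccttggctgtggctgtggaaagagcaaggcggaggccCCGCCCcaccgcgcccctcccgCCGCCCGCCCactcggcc
Each run holds 4 GC boxes, counted on both strands with overlapping matches included.

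Col28a1, Col23a1 and Col17a1 also fell. Col28a1 read at most 0.342 CPM in mesothelial cells and 2.49 to 6.99 in their fibroblasts, a log2 difference of -4.5 ± 0.36. Col23a1, a transmembrane collagen, differed by -2.08 ± 0.23. Col17a1, known from hemidesmosomes of epithelia, was low throughout, at 0.124 to 0.673 CPM in fibroblasts and at most 0.0938 in mesothelial cells.

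**Figure D4:**
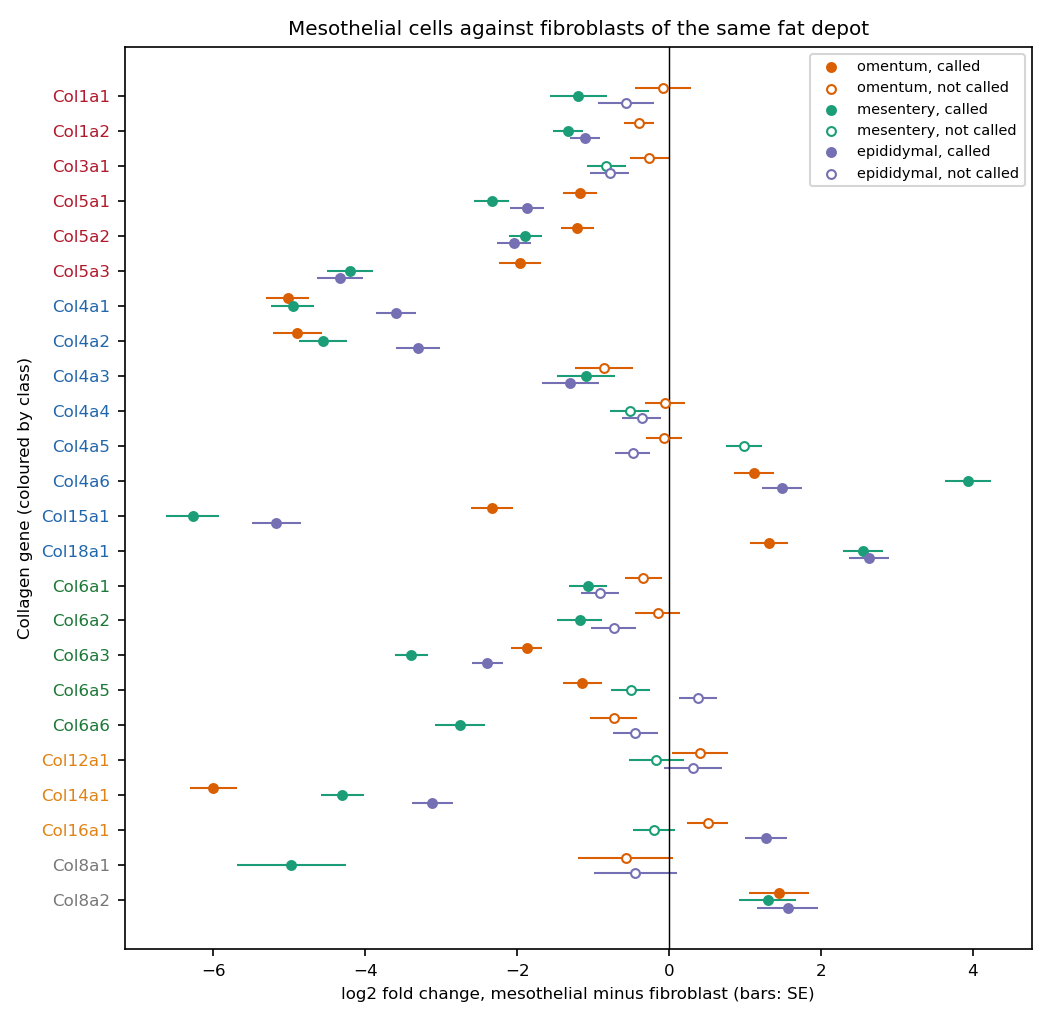
Log2 fold change of mesothelial cells minus fibroblasts (x axis, bars are standard errors) for the collagen genes with a mean of at least 10 CPM in any of the 6 groups, by depot; filled points were called. Col4a1, Col4a2 and Col14a1 lie far to the left in each depot, Col4a6 and Col18a1 to the right.

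In single depots the counts of called collagen genes were 17 in omentum, 22 in mesentery and 20 in epididymal fat, where 16.9%, 18.3% and 24.7% of all genes were called. In omentum 3 were higher and 14 lower (all genes: 8.1% and 8.79%), in mesentery 3 and 19 (10.8% and 7.53%), and in epididymal fat 6 and 14 (16.6% and 8.16%). The median over all genes tested was -0.09, 0.09 and 0.33 in these depots, so epididymal values sit on a higher baseline. Without the libraries of at least 2000 CPM of acinar markers, a limit chosen after seeing the data, 10 collagen genes were called in omentum, 2 higher and 8 lower, and 3996 of the 27301 genes then tested. That fit keeps 1 omentum fibroblast library, taken to vary like the other groups, and 2 omentum mesothelial libraries. Among the calls that ended, Col5a2 read -0.95, Col5a1 -0.93 and Col8a2 1.55. Leukocyte markers (12 genes) summed to 852 to 1869.5 CPM in mesentery mesothelial cells and 17.3 to 47.6 in mesentery fibroblasts. Tenocyte markers (6 genes, among them Fmod) summed to 924 to 2359 CPM in mesothelial cells and 78.3 to 197 in fibroblasts of the 3 depots, and Schwann cell markers (7 genes, among them Mbp) to 62 to 136 and 6.99 to 34.5 CPM. Not all of these markers were present: of the 7 Schwann cell genes, 3 to 6 had a count in a mesothelial library. In fibroblast libraries of the 3 depots 4 or 5 of them had one. Whether such cells were present, and their part in the collagen differences, was not tested.

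The size of the difference depended on the depot for some genes. The test of that difference across depots called 14 of 44 collagen genes, where 10.9% of all genes were called. Col15a1 (chr4:47208161-47313167) fell with a log2 difference of -6.28 in mesentery and -5.17 in epididymal fat but of -2.33 in omentum. Its levels were 10.4, 11.3 and 11 CPM in omentum, 0.903, 0.632 and 1.5 in mesentery and 2.56, 3.23 and 1.3 in epididymal mesothelial cells. Omentum mesothelial cells were the highest of the 3, without overlap.

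Col4a6 rose by 3.94 in mesentery, 1.49 in epididymal fat and 1.12 in omentum. The omentum value fell just short of the call without omentum mesothelial replicate 2 (0.98) or omentum fibroblast replicate 2 (0.94). Omentum fibroblasts carried the most mesothelial marker RNA among fibroblasts, with 12 markers summing to 668 to 999 CPM against 131 to 286 in mesentery and epididymal fibroblasts and 10831 to 16124 in mesothelial cells. Its part in the smaller omentum value was not tested. Col14a1 fell with a log2 difference of -6.0 in omentum, -4.3 in mesentery and -3.12 in epididymal fat.

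Mesothelial cells themselves differed between depots in 9 of 44 collagen genes (12.3% of all genes). Col6a5 (chr9:105856078-105960643) read 168, 219 and 234 CPM in omentum, 22.5, 13.1 and 23.9 in mesentery and 462, 348 and 468 in epididymal mesothelial cells, a log2 range of 4.42 (adjusted p = 4.29e-12). Its neighbour Col6a6 (chr9:105687809-105828160) read 18.9, 27.6 and 38.4 in omentum, 6.68, 6.04 and 6.97 in mesentery and 141, 86 and 151 in epididymal fat. Both were highest in epididymal fat and lowest in mesentery, with no overlap between depots. The other 7 were Col14a1, Col15a1, Col4a1, Col4a2, Col4a4, Col8a1 and Col6a4, with ranges from 1.64 to 4.39. The range of Col8a1 became 7.05 without mesentery mesothelial replicate 1.

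Fibroblasts were then compared across tissues. Nearly all collagen genes varied: 43 of 44 differed over the 9 tissues (Col20a1 did not pass), where 44% of all genes were called. Without bone the count was 32 of the 40 genes that could be tested, where 34.3% of all genes were called. The call of Col17a1 ended with any 1 of the 3 lymph node libraries, inguinal replicate 1 or 3 or mesentery replicate 1 or 2 left out, and its log2 range of 4.25 became 6.99 without lymph node replicate 1. For each tissue the text below gives the difference from the mean of the other 8 tissues. These comparisons share libraries and are not independent.

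Visceral fat fibroblasts had less fibrillar collagen mRNA than subcutaneous fat fibroblasts and more Col6a5 and Col4a6. Of the 44 genes 17 were called, 5 higher and 12 lower in visceral fat, where 8.23% of all genes were called (4.29% higher, 3.94% lower). The median log2 fold change was -0.50 over the collagen genes and -0.10 over all genes. Among the fibrillar genes 8 of 11 fell. Col3a1 read 8354, 6181 and 8491 CPM in omentum, 7647, 4175 and 10934 in mesentery, 10485, 12294 and 7198 in epididymal, 31687, 32819 and 33199.8 in inguinal and 32640.2, 29379 and 27070.5 in brown adipose fibroblasts. All subcutaneous libraries lay above all visceral libraries, and the log2 difference was -1.9 ± 0.16 (adjusted p = 7.1e-11). Col1a1 differed by -2.89 ± 0.24 and Col1a2 by -2.14 ± 0.13, while Col5a1, Col5a2 and Col5a3 differed by -1.5, -1.17 and -1.74.

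Type VI genes of visceral fat split by chain. Col6a5 read 534, 378 and 459 CPM in omentum, 24.3, 23.1 and 37 in mesentery and 292, 373 and 315 in epididymal fibroblasts, and 4.81 to 7.34 in the subcutaneous depots. Mesentery lay between the other visceral depots and the subcutaneous ones, and the log2 difference was 4.69 ± 0.21 (adjusted p = 6.23e-18). Col6a3 and Col6a2 fell with log2 differences of -1.74 and -1.36. Col4a6 rose by 3.88 ± 0.22, Col8a2 by 3.01 ± 0.37 (6.03 without inguinal replicate 1, the only inguinal library with a count), and Col12a1 fell with a log2 difference of -1.94 ± 0.23. The calls of Col2a1, Col11a1, Col26a1, Col28a1 and Col6a4 each ended with a single library left out. These were brown adipose replicate 1 (-3.25) or inguinal replicate 1 (-5.1) for Col2a1 and brown adipose replicate 1 (-3.32) for Col26a1. For Col28a1 they were brown adipose replicate 2 (0.90), inguinal replicates 2 (0.97) and 3 (0.95) and mesentery replicate 1, just under 1. For Col11a1 (-1.33) 9 single libraries ended the call, with -0.83 without brown adipose replicate 3, and for Col6a4 (1.56) 20 did.

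**Figure D5:**
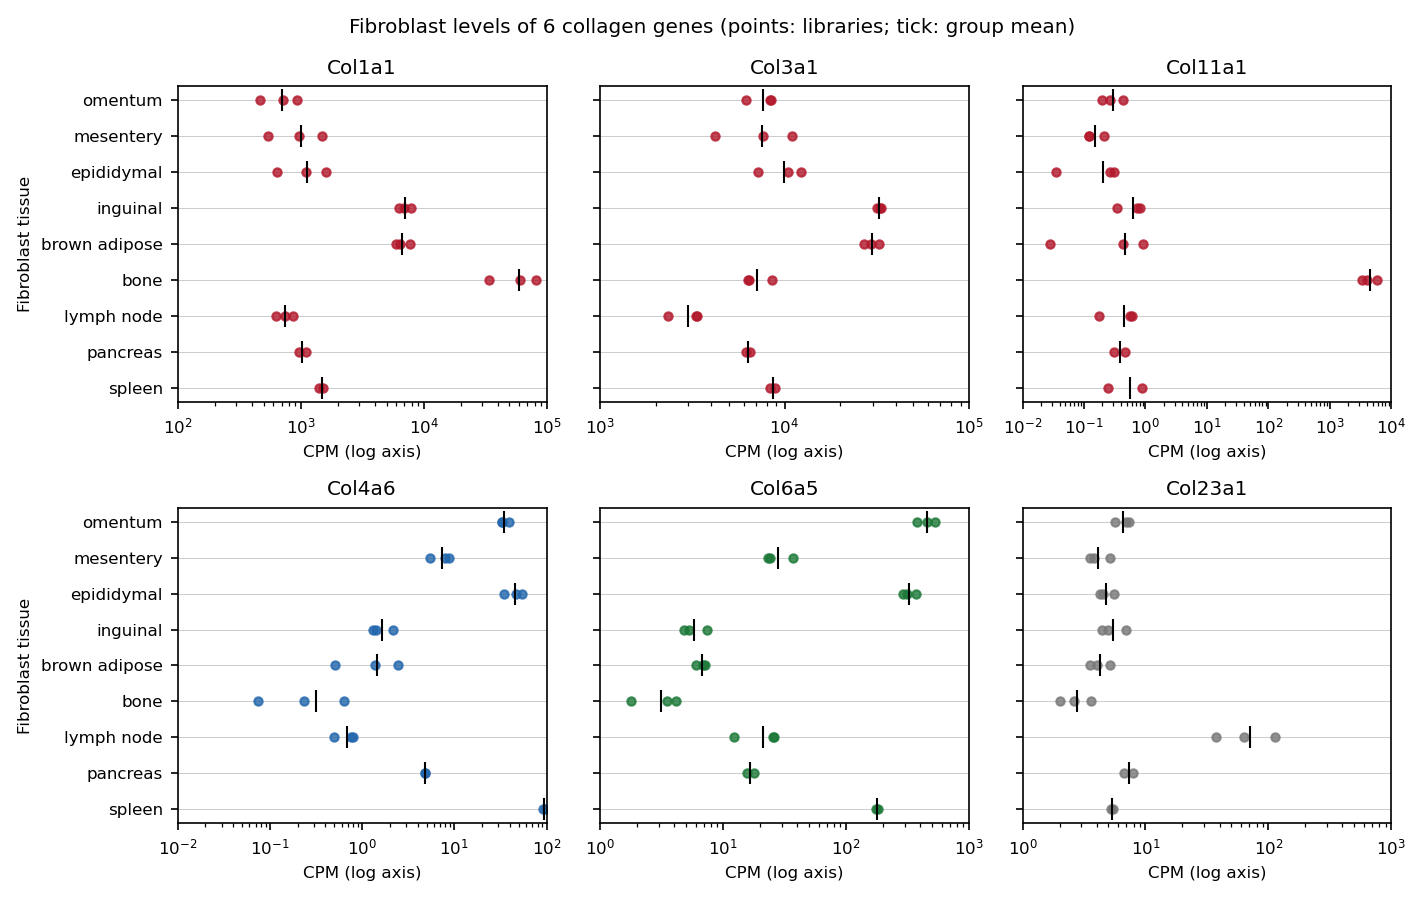
Level in CPM (log axis) of 6 collagen genes in fibroblasts of 9 tissues, 1 point per library, with a tick at the group mean. Col1a1 and Col11a1 peak in bone, Col3a1 in inguinal and brown adipose tissue, Col4a6 in spleen, Col6a5 in omentum and Col23a1 in lymph node.

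Bone fibroblasts carried the most type I collagen mRNA and, at levels far above the other groups, chains known from cartilage and from mineralised tissue. Of the 44 genes 35 were called, 22 higher and 13 lower than the mean of the other tissues, where 19.5% of all genes were called (12.8% higher, 6.65% lower). The median log2 fold change was 1.0 over the collagen genes and 0.03 over all genes. By class, 8 fibrillar, 7 FACIT and 7 other genes rose, and 7 basement membrane and 3 type VI genes fell. Col9a2, Col10a1, Col11a2 and Col13a1 are counted among those that rose, though they passed the filter on low counts only through bone. Their direction here was in part set by that filter.

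Col1a1 read 34219, 61389.8 and 82208 CPM in the 3 bone libraries and 7854, 6277 and 6914 in inguinal fibroblasts, the next tissue, while no library of the 6 tissues outside bone and subcutaneous fat exceeded 1615 CPM. Bone stood above all, at 8.45 times the inguinal mean, and the log2 difference from the other tissues was 5.21 ± 0.21 (adjusted p = 4.1e-18). Col1a2 (chr6:4504814-4541544) read 68476, 91904 and 116112 CPM in bone, 7.29 times the inguinal mean. Col5a2 rose too, at 4986, 5745 and 7698 CPM, whereas its partner Col5a1 overlapped between bone (219.5 to 269 CPM) and brown adipose tissue (250.1 to 341 CPM), with inguinal libraries at 300.4 to 316 CPM. Col3a1, at 8538, 6352 and 6395 CPM, did not rise with type I.

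Several fibrillar chains were close to 0 elsewhere. Col11a1 (chr3:114030540-114220718), which with Col11a2 forms the core of cartilage fibrils, read 3358, 4044 and 5909 CPM in bone and at most 0.92 in any other fibroblast library. Col11a2 read 139, 198 and 241, Col24a1, a fibrillar chain known from developing bone, 117, 116 and 219, and Col2a1 (chr15:97975602-98004695), the main cartilage collagen, 329, 603 and 290.0 CPM. Their highest levels in other fibroblasts were 0.091, 2.74 and 0.776 CPM. With so few counts on the other side, levels are given in place of fitted fold changes.

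FACIT and network-forming chains joined them. Col12a1, a FACIT of dense connective tissue and bone, read 429, 414 and 517 CPM in bone against at most 58.6 in other fibroblasts, and Col22a1, known from tissue junctions, 99.8, 154 and 185 against at most 1.47. Col8a1 read 482, 554 and 485 against at most 92.3, and Col8a2 32.7, 34.2 and 35 against at most 5.67. Col16a1 rose by 1.94 ± 0.17 and read 38.3, 29.7 and 39.1 CPM against 4.85 to 17.4 in other fibroblasts. In all 5 genes the bone libraries lay above every other fibroblast library.

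Some of the cartilage chains varied widely between the bone libraries. Col9a1 read 35.7, 119 and 20.3 CPM, Col9a2 2.06, 6.91 and 1.62, Col9a3 5.37, 24.4 and 5.13 and Col10a1 7.47, 40.1 and 11. Bone replicate 2 was the highest in each, as it was for Col2a1. Col11a1 and Col11a2, given above, were not highest in that library. Col10a1 (chr10:34389981-34397085), the collagen of hypertrophic cartilage, read at most 0.338 CPM in the 31 libraries outside bone. Its upstream run is shown because its counts were concentrated in bone (250 bases, chr10:34389731-34389980, plus strand; RefSeq, GRCm38.p6, capitals as above), and it holds a TATA box:
Col10a1: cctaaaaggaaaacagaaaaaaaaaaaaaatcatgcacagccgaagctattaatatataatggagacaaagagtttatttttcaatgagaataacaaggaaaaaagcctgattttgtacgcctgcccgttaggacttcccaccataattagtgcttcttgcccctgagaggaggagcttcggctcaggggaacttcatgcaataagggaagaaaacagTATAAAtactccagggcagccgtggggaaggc

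Markers of skeletal cells moved with these genes. All 9 osteoblast markers had counts in bone and summed to 27168 to 39155 CPM there, against 2.4 to 132 in all other groups, with Bglap (osteocalcin) at 10209.6 to 19125 CPM in bone. Chondrocyte markers (9 genes) summed to 904 to 1486 CPM in bone and 1.86 to 168 elsewhere, with Acan (aggrecan) at a mean of 81.1 ± 32.3 CPM (SD, n = 3). Tenocyte markers summed to 1903 to 2626 CPM in bone and 12.5 to 1367 in other fibroblasts, while epididymal mesothelial cells, at 1590.2 to 2359, overlapped with bone. Skeletal muscle markers (7 genes) summed to 370.2 to 5285 CPM in bone and 0.805 to 25.9 elsewhere. Pdgfra was lowest among fibroblasts in bone, at 367 to 419 CPM. What part these cells have in the collagen levels was not tested.

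Of the 13 genes that fell in bone, 7 were basement membrane genes. Col4a1 read 105, 109.6 and 53.7 CPM against 209 to 905 in other fibroblasts, a log2 difference of -2.29 ± 0.22 (adjusted p = 1.76e-10). Col4a2 to Col4a6 fell with log2 differences of -2.28, -4.14, -2.9, -2.49 and -4.5, and Col18a1 with -1.32, while Col15a1 was not called. Col6a5, Col6a6 and Col14a1 fell with log2 differences of -3.75, -1.84 and -1.79. The calls of Col27a1, Col5a3 and Col6a4 ended without bone replicate 2 (0.93), bone replicate 3 (-0.93) and pancreas replicate 2 (-2.6) respectively, and that of Col7a1 without bone replicate 2 (1.1) or replicate 3 (1.06).

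Lymph node fibroblasts had less of many collagens and more of a few rare ones. Of the 44 genes 25 were called, 5 higher and 20 lower, where 16.4% of all genes were called (9.32% higher, 7.13% lower). Without bone in the reference 25 of the 40 genes then tested were called, with Col6a5 in and Col11a1 out, where 16.8% of all genes were called. The median log2 fold change was -1.38 over the collagen genes and -0.04 over all genes. Among the fibrillar genes 7 fell and 1 rose, and 5 basement membrane genes fell. Col3a1 read 3305, 3342 and 2331 CPM against at least 4175 CPM in every other fibroblast library, and differed by -1.88 ± 0.22 (adjusted p = 3.46e-08).

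Col4a5 read 8.05, 3.87 and 8.25 CPM in lymph node, the lowest of all tissues, and fell with a log2 difference of -3.68 ± 0.24. Col14a1 read 60.7, 91.4 and 51.1 and fell with a log2 difference of -2.69 ± 0.23, Col15a1 read 11.1, 5.84 and 11.6 and fell with a log2 difference of -2.92 ± 0.25. Col8a1 reached no more than 1.41 CPM. By contrast Col4a1, at 301, 246 and 464 CPM, lay within the range of the other tissues, so that type IV chains did not fall together. The calls of Col6a1 and Col8a2 ended without lymph node replicate 3 (-0.94) and inguinal replicate 1 (-1.94), and that of Col7a1 with any 1 lymph node library left out (-2.1, -1.64 and -1.79 without replicates 1, 2 and 3). The call of Col11a1 ended without lymph node replicate 1 (-1.49) or replicate 3 (-0.98) or spleen replicate 1 (-1.17), and without bone its value was 0.32. Col17a1 fell with a log2 difference of -3.65, or -6.38 without lymph node replicate 1.

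The genes that rose in lymph node were Col6a4, Col23a1, Col26a1, Col28a1 and Col27a1. Col6a4 (chr9:105989454-106096783), a type VI chain beside Col6a5 and Col6a6 on chromosome 9, read 34.2, 57.6 and 32.3 CPM in lymph node and at most 3.19 in the other 31 libraries, a log2 difference of 6.73 ± 0.25 (adjusted p = 1.31e-22). Spleen came next among fibroblasts, with 2.41 and 2.2. Col23a1 (chr11:51289920-51583918) read 62.8, 37.3 and 112 CPM against at most 7.91 in other fibroblasts and rose by 3.85 ± 0.19 (adjusted p = 3.23e-17). Col28a1, which is known from peripheral nerve, read 12.9, 19.2 and 16.5 in lymph node and 10.7 and 10.1 in spleen, and Col26a1 2.58, 2.6 and 2.03 in lymph node and 2.78, 3.53 and 2.53 in bone. Mural cell markers (11 genes) were also highest in lymph node, at 1771 to 2446 CPM against 49.9 to 382 in other fibroblasts, with Rgs5 at 376 to 576, while Higd1b was at or near 0 (0 to 0.0565). Leukocyte markers summed to 398 to 885 CPM there. Their part in these collagen levels was not tested.

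Fibrillar collagen mRNA was high in inguinal and in brown adipose fibroblasts. In inguinal fat 15 genes were called, 11 higher and 4 lower (6.3% of all genes, 3.35% higher and 2.96% lower). In brown adipose tissue 17 were called, 11 higher and 6 lower (6.41%, 3.66% and 2.75%). Without bone in the reference 12 and 16 were called, where 6.18% and 6.52% of all genes were. In each depot 5 of 11 fibrillar genes rose, the chains Col1a1, Col1a2, Col3a1, Col5a1 and Col5a3. Col3a1 rose by 1.99 ± 0.16 (adjusted p = 4.64e-11) in inguinal and 1.84 ± 0.16 (adjusted p = 4.15e-10) in brown adipose tissue, and the libraries of these 2 depots lay above those of all other tissues.

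Col6a3 read 1267, 1449.5 and 1379.7 CPM in inguinal and 1196, 960.4 and 949 in brown adipose fibroblasts, the 2 highest tissues, and rose by 1.69 ± 0.13 and 1.24 ± 0.13. Col6a5 was at its low end here, with log2 differences of -2.75 and -2.52, as was Col4a6 at -1.88 and -2.08. Col12a1 read 58.6, 47.1 and 43 CPM in brown adipose tissue and rose by 1.44 ± 0.24. Tenocyte markers were uneven there, Tnmd reading 12.6 to 50.1 and Thbs4 78.1 to 391 CPM in brown adipose against 0.431 to 2.67 and 2.74 to 14.1 in inguinal fibroblasts. All 6 tenocyte markers together, on plain totals, summed to 122 to 387 CPM in brown adipose and 12.5 to 30.3 in inguinal fibroblasts. Omentum, mesentery and epididymal fibroblasts, at 78.3 to 197 CPM, overlapped with brown adipose. Lymph node fibroblasts lay higher, at 714 to 1367 CPM. The brown adipose call of Col8a1 (1.52) ended without brown adipose replicate 1 (0.63), as did those of Col5a1 (0.96) and Col6a2 (0.97). Col8a2 was listed at 0 in inguinal replicates 2 and 3. Without inguinal replicate 1 its value was -9.47 in inguinal fat in place of -3.43, a fitted value against libraries at 0 that is no bound, and in brown adipose tissue its call ended (-1.29).

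Omentum, epididymal and spleen fibroblasts each had more Col6a5, Col4a6 and Col4a5 than the mean of the other tissues. In omentum 13 genes were called, 4 higher and 9 lower (all genes: 10%, 7.64% higher and 2.38% lower). In epididymal fat 11 were called, 6 higher and 5 lower (4.43%, 2.5% and 1.93%). In spleen 9 were called, 8 higher and 1 lower (3.88%, 3.47% and 0.416%). Without bone in the reference the counts were 12, 5 and 11, where 10.1%, 3.87% and 3.63% of all genes were called. Col6a5 rose by 4.33 ± 0.15 (adjusted p = 2.81e-21) in omentum, 3.79 ± 0.15 (adjusted p = 1.2e-18) in epididymal fat and 2.8 ± 0.18 (adjusted p = 2.56e-13) in spleen. Its levels in spleen were 181 and 174 CPM, below omentum and epididymal fat and above the other 6 tissues, without overlap.

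Col4a6 was highest in spleen, at 90.7 and 99.1 CPM, and rose there by 4.7 ± 0.18 (adjusted p = 3.99e-19). Epididymal and omentum fibroblasts overlapped in rank behind it and rose by 3.51 ± 0.17 and 3.08 ± 0.18. Col4a5 read 199, 246 and 278 CPM in epididymal fat, 251 and 219.7 in spleen and 134, 150.1 and 141 in omentum, and rose by 2.14 ± 0.15, 2.1 ± 0.17 and 1.27 ± 0.16. Mesothelial markers summed to 171 to 177 CPM in spleen and 191 to 286 in epididymal fibroblasts, below the 668 to 999 of omentum fibroblasts.

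Other chains were also called in tissues of this set. Col6a6 read 184, 184 and 147 CPM in epididymal fibroblasts, above the highest library of any other fibroblast group (127 CPM), and rose by 1.54 ± 0.20. Col24a1 rose by 2.7 in omentum (4.12 without bone in the reference) at a low level of 0.721 to 2.74 CPM, against 116 to 219 in bone. Col28a1 rose by 1.87 ± 0.32 in spleen, where it read 10.7 and 10.1 CPM, below the 12.9 to 19.2 of lymph node. In spleen, which has 2 libraries, the calls of Col4a3, Col4a4, Col6a4 and Col5a3 ended without spleen replicate 1 (1.25, 0.70, 1.99 and -1.16), that of Col5a3 also without spleen replicate 2, and that of Col4a4, at 1.01, also without any 1 of 4 libraries of other tissues. In omentum, Col6a3 was the lowest of all tissues at 221, 191 and 259 CPM and fell with a log2 difference of -1.24 ± 0.16.

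Against the mean of the other tissues, pancreas fibroblasts had more Col15a1 and less Col28a1, and mesentery fibroblasts more Col8a2. In pancreas 13 genes were called, 8 higher and 5 lower (11% of all genes, 8.65% higher and 2.31% lower), in 2 libraries that carried the acinar RNA given above, and 6 were called without pancreas replicate 1. Without bone in the reference the count was 8 (11.2% of all genes). Col15a1 read 165 and 109 CPM and rose by 1.42 ± 0.21 (adjusted p = 5.09e-06), and Col28a1 read 0.171 and 0.405 and fell with a log2 difference of -3.99 ± 0.63. The highest brown adipose library read 118 CPM for Col15a1, so pancreas overlapped with other tissues. Col4a1 and Col4a2 rose by 1.24 and 1.18, with 0.99 and 0.92 without bone. The calls of Col4a2 (0.90), Col5a3 (0.86), Col8a1 (1.59), Col9a1 (2.09) and Col20a1 (0.23) ended without pancreas replicate 1. In mesentery 5 genes were called, 2 higher and 3 lower (3.5% of all genes, 2.19% higher and 1.31% lower). Without bone in the reference only Col8a2 of these was called, at 2.0 in place of 1.39 (2.15 without inguinal replicate 1), where 3.18% of all genes were. Col8a2 read 3.57, 4.99 and 5.67 CPM in mesentery fibroblasts and 32.7 to 35 in bone. Mesentery overlapped with pancreas (3.8 and 2.43 CPM) and spleen (3.35 and 3.69 CPM). Col14a1 rose by 1.11 in mesentery, or by 0.91 without bone and 0.85 without mesentery replicate 3, both below the call.

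At low level, 8 genes stayed under a mean of 10 CPM in every group: Col7a1, Col9a2, Col13a1, Col17a1, Col19a1, Col20a1, Col25a1 and Col26a1. Col13a1, a transmembrane collagen of the neuromuscular junction, read 5.2, 8.54 and 7.62 CPM in bone, Col25a1 2.17, 6.72 and 2.49 and Col19a1 3.1, 1.11 and 0.671. Each was below 1 CPM in every other library. Col7a1, the anchoring fibril collagen of skin, and Col20a1 stayed at 0 to 1.06 and 0.0303 to 1.64 CPM across all 34 libraries.

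Genes that act on collagen were read from a list of 37 processing genes (hydroxylases, chaperones, procollagen proteinases, lysyl oxidases) and 13 receptors. In mesothelial cells 14 processing genes were called, 3 higher and 11 lower, and 8 receptors, 2 higher and 6 lower, where 21.4% of all genes were called (12.3% higher, 9.08% lower). Pcolce2, an enhancer of procollagen cleavage, read 0.253 to 1.85 CPM in mesothelial cells against 202 to 485 in their fibroblasts and fell with a log2 difference of -8.65 ± 0.18. The proteinases Adamts2 and Adamts14 fell with log2 differences of -2.2 and -4.05, the prolyl hydroxylase subunit P4ha2 with -2.13, Kdelr3 with -2.06 and the folding enzyme Fkbp14 with -1.3. P3h4, Tll1 and Adamts3 rose by 2.98, 3.01 and 1.25. Among receptors the integrin chains Itga11 and Itga2 fell with log2 differences of -6.23 and -4.53, the type VI collagen receptor Antxr2 with -2.3, the uptake receptor Mrc2 with -2.59, Ddr2 with -2.09 and Antxr1 with -1.05. Ddr1, the epithelial discoidin domain receptor, and Itga10 rose by 3.01 and 2.28. Ddr2 and its relative Ddr1 moved in opposite directions.

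In bone 20 of the 37 processing genes were called, 18 higher, where 19.5% of all genes were called (12.8% higher, 6.65% lower), led by the lysyl hydroxylase Plod2 (3.96), Lox (2.65), Loxl4 (2.7) and Fkbp10 (2.24). Pcolce2 and Loxl1 fell with log2 differences of -1.43 and -1.2. Of the receptors 4 rose, Itga10 (7.53), Cspg4 (4.43), Gp6 (2.78) and Mrc2 (1.08). Itga10 is known as a chondrocyte integrin chain.

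In lymph node 17 processing genes were called, 1 higher and 16 lower, where 16.4% of all genes were called (9.32% higher, 7.13% lower). Lox, Loxl2 and Pcolce2 fell with log2 differences of -2.44, -2.51 and -2.41 and Adamts2 with -1.55, while the prolyl 3-hydroxylase P3h2 rose by 5.27 ± 0.23, to 26.3 to 29.3 CPM against 0.0283 to 3.83 in other fibroblasts. Of the receptors Itga1 and Itga2 rose by 3.32 and 1.49, and Antxr2, Mrc2, Itga11 and Cspg4 fell with log2 differences of -2.28, -1.81, -1.51 and -1.26. In visceral against subcutaneous fat 8 processing genes were called, 2 higher and 6 lower, where 8.23% of all genes were called (4.29% higher, 3.94% lower), led by Pcolce (-1.36), P4ha2 (-1.28), Tll1 (-1.88) and Pcolce2 (-1.02) among those that fell, with P3h2 (1.94) and Adamts3 (1.08) higher.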

How the data were processed

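The authors deposited raw read counts per gene, in a file for each library, and per the file headers these are uniquely aligned reads of a gene model. Salmon (version not given) and the build GRCm38 stand in the submitters' processing notes, and which step gave the counts is not given in the sources used here, nor are the annotation release and filters. Groups followed the labels, and no entry lacked an identifier. The collagen genes and the lists of processing genes, receptors and cell markers were chosen with earlier results of these data known.

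Counts of all 34 libraries entered 1 fit in edgeR 4.0.16 (R 4.3.3), with TMM scaling, filterByExpr at a minimum count of 10, a coefficient per group and the robust quasi-likelihood test. Adjusted p-values are Benjamini-Hochberg values over 25705 genes. A test over several groups gives the range of group effects as its fold change. CPM values use TMM-scaled totals, while shares of counts and sums over marker lists use plain totals. Positions and merged exon lengths come from GENCODE M21 for GRCm38. Overlap of a collagen gene's exons with other genes reached at most 6.07% (Col9a3), and the counting strand is not given. The script was tested on simulated data. Replicate libraries differed by far more than sampling noise (chi-square per degree of freedom from 24.8).

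By the naming rule all 44 genes are named, with values by group where a mean reached 10 CPM, and from the processing and receptor lists up to 6 called genes per direction for the mesothelial comparison and up to 4 for a tissue. Alternatives were DESeq2 1.42.0, other size factors (RLE), no filter, only the compared groups, no minimum fold, a replicate block, each library left out, and libraries with at least 1000 CPM of acinar markers left out. After seeing the data, a limit of 2000 CPM and fits without pancreas or without bone were added. Whether the replicate numbers pair the samples is not known. Deviations from the group means were correlated between fibroblast and mesothelial libraries of a depot. Same-numbered libraries gave -0.25 to 0.23, with 2 of 9 over 0.1. Differently numbered ones gave -0.24 to 0.20, with 5 of 18 over 0.1. With so few libraries per group, these values cannot tell whether the samples are paired.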

Additional observations from a re-analysis of the deposited data

Results flagged for a closer look

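In 14 collagen genes the difference between mesothelial cells and fibroblasts itself differed between the 3 depots. This was edgeR's test over all genes, with adjusted p-values, and it called 10.9% of all genes. The median range of the 3 log2 effects was 1.21 over all genes tested and 1.5 over the collagen genes. A minimum of 1 is therefore a weak limit for a range. The range of the 3 log2 effects was 4.53 for Col8a1 (adjusted p = 0.00181), 3.95 for Col15a1 (7.95e-08), 2.88 for Col14a1 (3.55e-06), 2.82 for Col4a6 (3.55e-06), 2.37 for Col5a3 (4.33e-05) and 2.31 for Col6a6 (0.000655). The Col8a1 range was 7.17 without mesentery mesothelial replicate 1. In Col8a1, Col15a1, Col4a6 and Col6a6 the mesentery effect was the largest. In Col14a1 it was the omentum effect, and in Col5a3 the epididymal and mesentery effects were similar and the omentum effect the smallest.

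Smaller ranges were found for Col4a2 at 1.59 (0.0123), Col6a3 at 1.52 (0.000793), Col6a5 at 1.52 (0.0116), Col16a1 at 1.47 (0.0299), Col4a5 at 1.46 (0.00679), Col4a1 at 1.43 (0.00486), Col18a1 at 1.31 (0.0147) and Col5a1 at 1.16 (0.0313). These ranges were near the median range of 1.21 over all genes tested. Col6a5 was lower in mesothelial cells of omentum (-1.14), and read -0.51 in mesentery and 0.38 in epididymal fat, neither called. Col4a5 read -0.07, 0.99 and -0.48 in omentum, mesentery and epididymal fat, and Col16a1 0.51, -0.20 and 1.27. Several of these calls ended in other fits. Without the libraries of at least 2000 CPM of acinar markers, a fit with fewer libraries, Col5a1 read 1.6, Col16a1 1.49, Col4a1 1.44, Col4a2 1.32, Col6a5 1.11 and Col18a1 0.74, none of them called. With a replicate block Col16a1 (1.36), Col6a5 (1.37) and Col18a1 (1.20) were not called. The call of Col16a1 ended with any 1 of 7 libraries left out (1.23 without epididymal mesothelial replicate 2), that of Col5a1 with any 1 of 6 (0.97 without mesentery fibroblast replicate 3), and that of Col18a1 without omentum mesothelial replicate 1 (1.13) or omentum fibroblast replicate 3 (1.17).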

How the results depend on the processing

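The count of called collagen genes stayed within 1.5 times its value in most alternatives. Calls of single genes were kept in 299 of 303 cases with RLE size factors and 298 of 303 without the filter. They were kept in 288 of 299 with only the compared groups, 292 of 303 with DESeq2 and 170 of 173 without pancreas. Some calls ended without libraries high in acinar markers, but those fits keep single libraries in some groups. The limit of 2000 CPM keeps 1 mesentery mesothelial and 1 omentum fibroblast library. The limit of 1000 keeps 1 library of each mesentery group. It leaves no omentum fibroblast or pancreas library and was not run for those. Without bone 109 of 147 calls were kept, and Col11a1 changed sign in lymph node (0.32) and pancreas (0.17). The omentum mesothelial count moved to 10 without libraries of at least 2000 acinar CPM, and without bone the counts moved to 1 in mesentery, 5 in epididymal fat and 8 in pancreas. The cause was not tested. With a replicate block 289 of 302 calls were kept, and the mesothelial mean comparison had 19 called genes in place of 18. With each library left out in turn 10104 of 10302 calls were kept, and the counts ran from 17 to 20 for the mesothelial mean, 15 to 19 for omentum, 19 to 24 for mesentery, 17 to 21 for epididymal fat, 12 to 17 for the difference between depots, 9 to 12 for mesothelial cells across depots, 42 to 44 for fibroblasts across tissues, 13 to 17 for visceral against subcutaneous fat, 11 to 14 for omentum fibroblasts, 3 to 5 for mesentery fibroblasts, 8 to 12 for epididymal fibroblasts, 14 to 18 for inguinal fibroblasts, 13 to 19 for brown adipose fibroblasts, 33 to 35 for bone fibroblasts, 22 to 25 for lymph node fibroblasts, 6 to 13 for pancreas fibroblasts and 5 to 10 for spleen fibroblasts. Genes near 0 CPM rest on few counts even at 28.7 M counts per library or more.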
